A study of Mus musculus with 9 samples.

Results

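Fbxo32, Trim47, Cpxm2 and Ifngr1 are 4 of the 55357 genes in a deposited RNA-seq table of sorted mouse back skin keratinocytes. They were selected on the mean expression values of all 3 groups, lower in touch dome than in interfollicular keratinocytes and low in hair follicle keratinocytes, so those values are given as a description. All 4 were among the 15046 genes that passed a filter on low counts. The libraries came from TNC-CREER; tdTomato mice on a C57BL/6 background at postnatal day 60, given tamoxifen at 100 µg per g body weight on postnatal days 51 and 52, and each of the 3 groups had 3 libraries. Cre from the Tnc gene switches on the reporter, so the reporter marks cells with Tnc activity around the injections and not touch dome cells as such. The Touchdome gate took cells positive for the reporter, SCA1, integrin α6 and EPCAM. IFE (interfollicular epidermis) cells shared that gate except that they lacked the reporter. HF (hair follicle) cells carried EPCAM and integrin α6 but neither SCA1 nor the reporter. All groups thus carried the same alleles and treatment. The labels do not state that libraries came from separate animals, so any spread or p-value refers to these samples and may be technical in part.

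Tnc, the gene that drives Cre, was highest in Touchdome, and stood higher in HF than in IFE although both were sorted without the reporter. Tnc ranged from 200.4 to 288 CPM in Touchdome, 1.13 to 7.16 CPM in IFE and 40.6 to 56.9 CPM in HF, and Ly6a (SCA1) from 0.422 to 1.90 CPM in HF against at least 104 CPM in the other libraries. CPM is a count scaled to library size after TMM, a factor that aligns most genes between libraries. Total expected counts ran from 9295059 to 28249763 per library. Touchdome replicate 3 lay nearer to HF than the other Touchdome libraries on the first principal component (-2.86 against -37.6 and -40.7, with IFE at -75.4 to -57.5 and HF at 89.2 to 98.7).

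The genes belong to separate systems. Fbxo32 encodes atrogin-1, an F-box protein that brings substrates to a Skp1-Cul1 ubiquitin ligase, and it is best known as a FoxO-driven gene of muscle wasting. Trim47 encodes a tripartite motif protein with a RING domain, the hallmark of a large class of ubiquitin ligases. Cpxm2 encodes a secreted protein of the metallocarboxypeptidase family that carries a discoidin domain and is thought to lack enzyme activity. Ifngr1 encodes the ligand-binding chain of the interferon gamma receptor, which works with the Ifngr2 chain and the kinases Jak1 and Jak2 to switch on antigen presentation and antiviral genes, and keratinocytes respond to that cytokine.

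Fbxo32 had no entry in the RefSeq promoter table (build GRCm38.p6). The stretch of 250 bases before the start site is shown for the 3 genes with an entry. Capitals mark GC boxes (GGGCGG on either strand), the motif found in each of them. The Trim47 stretch is chr11:116110236-116110485 on the minus strand, that of Cpxm2 is chr7:132154742-132154991 on the minus strand and that of Ifngr1 is chr10:19591699-19591948 on the plus strand.
Trim47: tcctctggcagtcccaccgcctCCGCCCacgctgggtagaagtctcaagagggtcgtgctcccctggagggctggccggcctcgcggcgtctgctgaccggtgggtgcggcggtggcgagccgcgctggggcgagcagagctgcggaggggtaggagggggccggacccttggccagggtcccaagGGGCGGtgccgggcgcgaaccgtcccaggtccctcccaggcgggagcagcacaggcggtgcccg
Cpxm2: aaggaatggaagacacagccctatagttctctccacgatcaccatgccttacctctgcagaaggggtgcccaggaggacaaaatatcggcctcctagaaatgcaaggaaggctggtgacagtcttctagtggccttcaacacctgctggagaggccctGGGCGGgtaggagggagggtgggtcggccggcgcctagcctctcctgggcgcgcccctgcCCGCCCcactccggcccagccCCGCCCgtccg
Ifngr1: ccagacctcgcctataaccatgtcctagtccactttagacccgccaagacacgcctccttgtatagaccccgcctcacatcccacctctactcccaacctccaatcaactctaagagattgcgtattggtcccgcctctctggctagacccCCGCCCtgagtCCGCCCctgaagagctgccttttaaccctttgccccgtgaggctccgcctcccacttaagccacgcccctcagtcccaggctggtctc
Trim47 held 2 GC boxes, Cpxm2 held 3 and Ifngr1 held 2, and 32.7% of the 32851 stretches in the table held at least 1. Their share of G and C was 75.2%, 64.0% and 59.2%, against a median of 52.4% over the table. No stretch held the FoxO element GTAAACA, the interferon gamma activated site TTCNNNGAA or the AP-1 site TGANTCA on either strand, which occurred in 3.17%, 7.02% and 6.75% of all stretches. These are matches of letters only.

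Fbxo32 (ENSMUSG00000022358) measured 84.6, 109 and 78.4 CPM in the Touchdome libraries (replicates 1, 2 and 3), 167, 159 and 164 in those of IFE and 40.8, 47.5 and 34.2 in those of HF. The 3 groups did not overlap, with IFE highest and HF lowest, and the IFE libraries had the smallest spread. The means in the same order were 90.7 ± 16.3, 163 ± 3.94 and 40.8 ± 6.66 CPM (SD, n = 3 each), which put Touchdome at 55.5% and HF at 24.99% of the IFE mean. On the log2 scale of the fit, Touchdome lay -0.85 ± 0.15 from IFE and 1.15 ± 0.15 from HF (SE of the fitted difference).

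Trim47 (ENSMUSG00000020773) measured 74.4, 79.3 and 65.6 CPM in the Touchdome libraries, 123, 103 and 124 in those of IFE and 5.71, 5.48 and 7.14 in those of HF. The groups again did not overlap, but the drop to HF was much the larger step. Touchdome (73.1 ± 6.94 CPM) kept 62.7% of the IFE mean of 117 ± 12.0 CPM, and HF (6.11 ± 0.900 CPM) kept 5.24% (SD, n = 3 each). The fitted log2 differences were -0.67 ± 0.13 (SE) for Touchdome from IFE and 3.57 ± 0.15 for Touchdome from HF.

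Cpxm2 (ENSMUSG00000030862) measured 114, 128 and 84.0 CPM in the Touchdome libraries, 181, 195 and 170.3 in those of IFE and 7.13, 6.96 and 6.36 in those of HF. Every HF library lay far below every other library, and the lowest IFE library lay above the highest Touchdome library. Means were 109 ± 22.5, 182 ± 12.7 and 6.81 ± 0.406 CPM (SD, n = 3 each), which left 59.6% of the IFE mean in Touchdome and 3.74% in HF. The fitted log2 differences were -0.75 ± 0.14 (SE) from IFE and 3.99 ± 0.17 from HF.

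Ifngr1 (ENSMUSG00000020009) measured 124, 142 and 98.1 CPM in the Touchdome libraries, 192, 227 and 172 in those of IFE and 42.5, 47.3 and 37.2 in those of HF. The order was the same, without overlap. Touchdome averaged 122 ± 22.3 CPM and HF 42.3 ± 5.08 CPM, which is 61.8% and 21.5% of the IFE mean of 197 ± 27.8 CPM (SD, n = 3 each). Touchdome lay -0.69 ± 0.15 (SE) from IFE and 1.52 ± 0.16 from HF on the log2 scale.

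**Figure D1:**
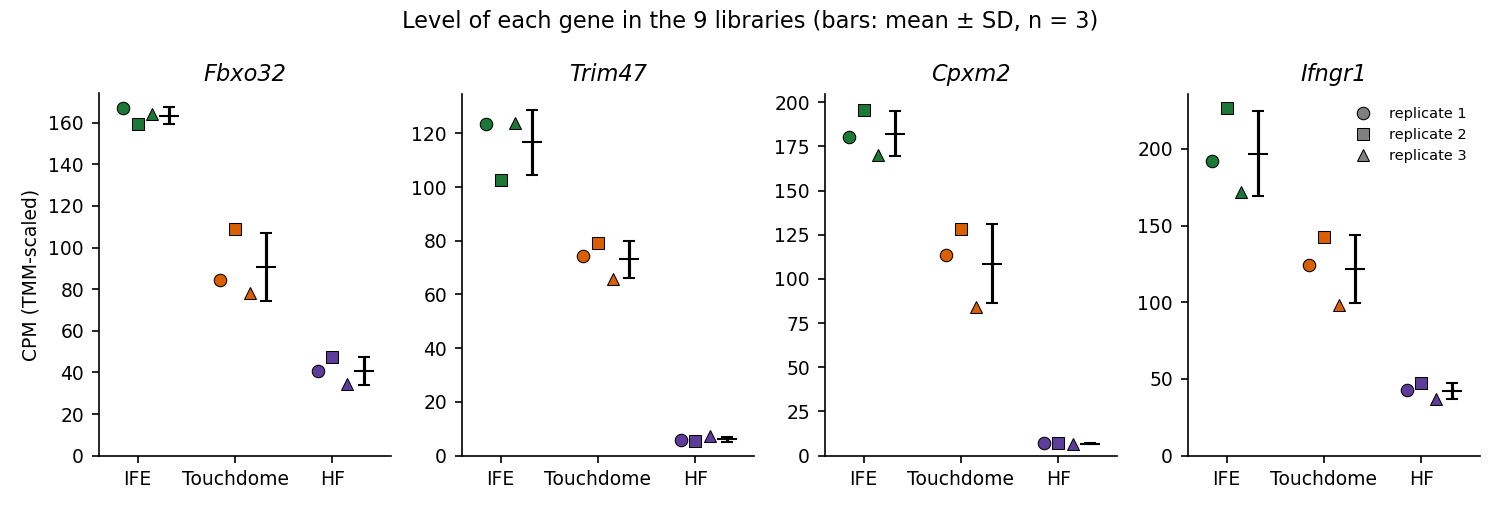
Level in CPM (linear axis from 0) of Fbxo32, Trim47, Cpxm2 and Ifngr1 in each of the 9 libraries, with mean ± SD (n = 3) beside the points. In each panel the IFE libraries lie above the Touchdome libraries and those above the HF libraries; Touchdome replicate 3 is the lowest Touchdome point of every gene.

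The choice of the genes fixed this order, so nothing is read from it. Beside the 4 of 4 genes whose Touchdome libraries all lay below all IFE libraries, 6.27% of the genes tested did so. The opposite order, all Touchdome above all IFE libraries, held for 8.32% of genes. All Touchdome above all HF libraries was met by 21.2% of genes, all HF below all IFE libraries by 23.1% (and all above by 24.6%), and the full order of IFE over Touchdome over HF by 377 genes or 2.51%. The 4 genes were also among the 12 (0.0798% of those tested) called lower in Touchdome than in IFE at an adjusted p under 0.05 by edgeR's quasi-likelihood test. Those 12 spanned log2 differences of -1.04 to -0.52, and Fbxo32, Cpxm2, Ifngr1 and Trim47 ranked 4, 6, 7 and 9 by size. The count of 12 became 67 with the replicate number as a block, 84 with DESeq2, 5 when HF was left out of the fit and 0 with limma on log2(TPM + 1). Without 1 library it was 4 to 29, moving by over 1.5 times without Touchdome replicate 1 (7), IFE replicates 1 (7), 2 (29) or 3 (4) or HF replicate 3 (7). Of the 4 genes, only Fbxo32 was called without Touchdome replicate 1 or IFE replicate 1, 2 were called without Touchdome replicate 3 (Fbxo32 and Cpxm2), IFE replicate 2 (Fbxo32 and Trim47) or IFE replicate 3 (Fbxo32 and Cpxm2), and Ifngr1 dropped out without any 1 HF library. All 4 genes were among the genes called higher in Touchdome than in HF (11.8% of genes) and lower in HF than in IFE (16.0%). The 4 genes were chosen on these levels, so all their calls are descriptions and not evidence for any of them. In sorted bulk samples, fewer cells with a transcript and less of it per cell cannot be told apart.

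Levels of different genes were compared in TPM, a deposited unit scaled for transcript length. In IFE, Ifngr1 was highest (169 ± 15.2 TPM), Trim47 (97.0 ± 14.3 TPM) and Cpxm2 (96.9 ± 7.04 TPM) overlapped, and Fbxo32 was lowest (35.5 ± 3.15 TPM). The same order held in Touchdome, at 116 ± 17.9, 67.6 ± 9.22, 65.7 ± 8.42 and 21.7 ± 4.09 TPM, again with Trim47 and Cpxm2 overlapping. In HF the order changed. Ifngr1 stood at 43.2 ± 5.04 TPM, then came Fbxo32 at 10.3 ± 1.72, Trim47 at 5.89 ± 0.875 and Cpxm2 at 4.15 ± 0.535 TPM (SD, n = 3 each), with no overlap between neighbours. Fbxo32, the lowest of the 4 in the SCA1-positive populations, thus stood above Trim47 and Cpxm2 in HF.

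**Figure D2:**
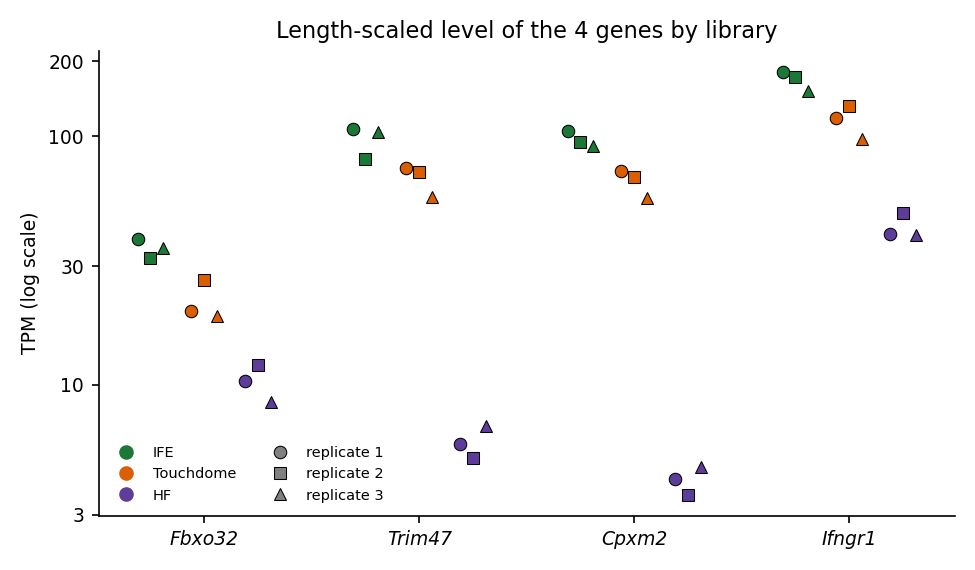
TPM on a log axis for the 4 genes in every library, coloured by group and shaped by replicate number. Trim47 and Cpxm2 lie between 80.6 and 107 TPM in IFE but between 3.61 and 6.81 TPM in HF, below Fbxo32, whose HF libraries lie between 8.50 and 11.9 TPM.

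Where Touchdome lay between the other groups is given as a description, since the levels behind it chose the genes. Position was the distance of Touchdome from IFE on the log2 CPM scale (prior count 2) as a share of the step from IFE to HF, so 0 is the IFE mean and 1 the HF mean. Trim47 lay at 0.159 (0.152, 0.130 and 0.195 in replicates 1, 2 and 3) and Cpxm2 at 0.162 (0.144, 0.107 and 0.236). Ifngr1 lay further along, at 0.317 (0.295, 0.206 and 0.450), and Fbxo32 furthest, at 0.429 (0.472, 0.290 and 0.527). The replicates of different genes overlapped, with replicate 3 of Cpxm2 above replicate 2 of Ifngr1. The 993 genes called lower in HF than in IFE by more than 1 on the log2 scale had a median position of 0.101. Their quartiles were -0.0187 and 0.215. Touchdome replicate 3 also lay nearer to HF over these genes, with a median position of 0.195 against 0.05004 and 0.0638 in replicates 1 and 2. Without that library, the log2 differences of Touchdome from IFE were -0.76, -0.60, -0.59 and -0.56 for Fbxo32, Trim47, Cpxm2 and Ifngr1. Their sign was fixed in advance, since the Touchdome and IFE libraries of these genes did not overlap.

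**Figure D3:**
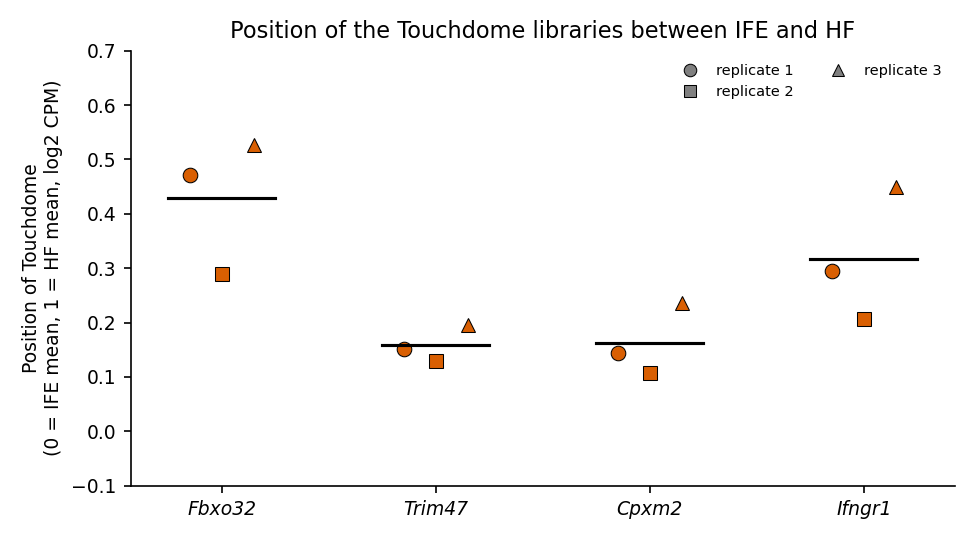
Position of each Touchdome library between the IFE mean (0) and the HF mean (1) for the 4 genes, with a black line at the gene's mean position. Means run from 0.159 for Trim47 to 0.429 for Fbxo32, and replicate 3 has the highest position of every gene.

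The genes were picked on group levels, but all 4 also passed a test that depends on the spread of libraries inside a group. The spread given here may therefore not be independent of the choice. In Touchdome, replicate 2 was the highest and replicate 3 the lowest library of all 4 genes. As deviations from the group mean on the log2 scale, replicate 2 lay at 0.28 for Fbxo32, 0.12 for Trim47, 0.26 for Cpxm2 and 0.25 for Ifngr1, and replicate 3 at -0.20, -0.15, -0.35 and -0.29. Across the 9 deviations, Cpxm2 and Ifngr1 had Pearson's r = 0.903, Fbxo32 and Ifngr1 0.740 and Fbxo32 and Cpxm2 0.683. Trim47 did not follow them, with r = -0.0952 to Fbxo32, 0.136 to Cpxm2 and -0.217 to Ifngr1. In IFE, replicate 2 was the highest library for Cpxm2 and Ifngr1 and the lowest for Trim47 and Fbxo32. In HF, replicate 3 was the highest library for Trim47 and the lowest for the other 3 genes. These orders are in CPM and differed in part in TPM. The highest Touchdome library was replicate 1 for Trim47 (74.2 TPM) and Cpxm2 (72.3 TPM). In IFE it was replicate 1 for Cpxm2 (105 TPM) and Ifngr1 (182 TPM), and in HF replicate 3 for Cpxm2 (4.68 TPM). Replicate 3 was the lowest Touchdome library of all 4 genes in both units. The coefficients rest on CPM alone. The points share their libraries and depth, and these coefficients are descriptions.

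**Figure D4:**
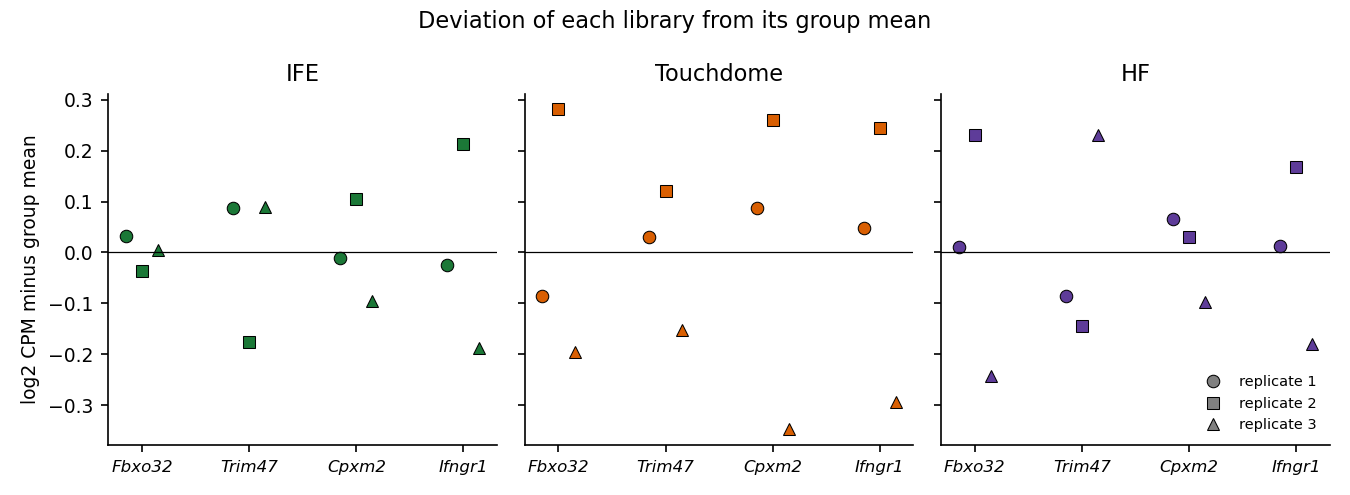
Log2 CPM of each library minus the mean of its group, for the 4 genes in IFE, Touchdome and HF. Replicate 2 is above and replicate 3 below the mean for every gene in Touchdome, whereas in HF Trim47 runs against the other genes, with replicate 3 at 0.23.

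Reads of overlapping genes could not be separated by strand, since the strand setting is not given in the sources used here. In the GENCODE M21 annotation, Trim65 overlaps Trim47 on the same strand, Fgfr2 overlaps Cpxm2 on the same strand, Gm15943 lies antisense to Fbxo32, Gm15677 and an rRNA gene lie on the other strand at Cpxm2, and Ifngr1 has no overlapping gene. Trim65 stood at 13.5 ± 2.44 CPM (Touchdome), 12.0 ± 1.08 CPM (IFE) and 12.0 ± 3.73 CPM (HF) (SD, n = 3 each), and its libraries overlapped between all groups. Fgfr2, a fibroblast growth factor receptor of basal keratinocytes, stood at 568 ± 22.9, 677 ± 66.4 and 285 ± 29.0 CPM in the same order. Its libraries did not overlap between groups, with IFE highest and HF lowest, as for Cpxm2. Gm15943 and Gm15677 did not exceed 1.08 CPM in any library. The part of these overlaps in the values of Trim47, Cpxm2 and Fbxo32 was not tested.

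Ifngr2 and Jak1, partners of Ifngr1, were higher in Touchdome than in HF. Of 11 tested genes of the interferon gamma receptor and its signal path, 0 rose and 0 fell from IFE to Touchdome, beside 1.22% and 0.0798% of all genes (edgeR; 0 and 0 also at an unadjusted p under 0.05, with DESeq2 and with limma on TPM). Ifngr2, the other receptor chain, stood at 44.7 ± 3.20 CPM for Touchdome against 45.6 ± 4.77 CPM for IFE (SD, n = 3 each), a log2 difference of -0.03 ± 0.12 (SE). Jak1 differed by -0.03 ± 0.13. The 2 genes of the list with the highest CPM, Stat3, a transcription factor of several cytokine paths, and Socs3, a feedback inhibitor, differed by -0.17 ± 0.14 and -0.36 ± 0.46. Whether the difference of Ifngr1 exceeds that of its partners was not tested. Against HF, 3 of the 11 were higher and 0 lower in Touchdome, beside 11.8% and 12.8% of all genes. They included Ifngr2 (0.59 ± 0.13, adjusted p = 0.00402) and Jak1 (0.50 ± 0.13, adjusted p = 0.0136, edgeR). Jak1 lost the call without HF replicate 3 (adjusted p = 0.0625) and with limma on TPM (adjusted p = 0.119). In HF 3 of the 11 were lower and 0 higher than in IFE, a comparison that shares the HF libraries, with log2 differences of -0.62 for Ifngr2 and -0.54 for Jak1 beside -2.22 ± 0.16 for Ifngr1; there Jak1 lost its call with limma on TPM (adjusted p = 0.204).

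**Figure D5:**
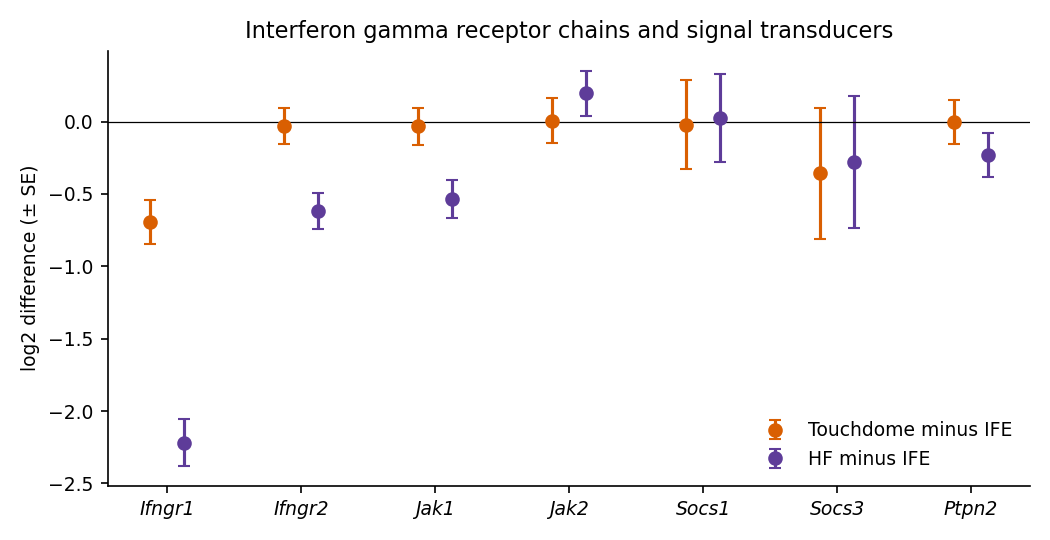
Log2 difference ± SE from IFE of Touchdome (orange) and HF (purple) for Ifngr1 and for 6 of the 11 partner genes, from the fit of all 9 libraries. Ifngr1 lies at -0.69 in Touchdome and -2.22 in HF; Ifngr2 and Jak1 both lie at -0.03 in Touchdome, and at -0.62 and -0.54 in HF.

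Interferon gamma target genes were higher in Touchdome than in HF in most cases. Of 21 tested, 0 rose and 0 fell from IFE to Touchdome with edgeR, beside 1.22% and 0.0798% of all genes (2 and 0 at an unadjusted p under 0.05, and 0 and 0 with DESeq2 or limma), with a median log2 difference of 0.25 beside 0.00 over all genes. With the replicate block 1 passed, the chemokine gene Cxcl9, higher by 1.45 ± 0.29 (adjusted p = 0.0280, edgeR). The antigen presentation genes Tap1 and B2m, which had the highest CPM, differed by -0.10 and -0.19. Against HF, 15 were higher and 0 lower in Touchdome, beside 11.8% and 12.8% of all genes. They included the guanylate-binding protein gene Gbp2 (67.8 ± 6.87 against 12.1 ± 2.86 CPM, adjusted p = 2.22e-06), the GTPase gene Iigp1 (3.21 ± 0.26) and the immunoproteasome subunit genes Psmb8 (1.33 ± 0.13) and Psmb9 (1.22 ± 0.13). In HF against IFE, 12 of the 21 were lower and 0 higher (16.0% and 17.1% of all genes).

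Among 10 other class II cytokine receptors, the family of Ifngr1, 0 rose and 0 fell from IFE to Touchdome with edgeR, beside 1.22% and 0.0798% of all genes (2 higher and 1 lower at an unadjusted p under 0.05, 1 and 1 with DESeq2, and 0 and 0 with limma). Il22ra1, a chain of the interleukin 22 receptor, passed as higher without Touchdome replicate 1 (1.305 ± 0.22, adjusted p = 0.0124, edgeR). Il20ra, a chain of receptors for interleukins 20 and 24, came closest, at 64.3 ± 18.3 CPM (Touchdome), 121 ± 20.8 CPM (IFE) and 0.798 ± 0.183 CPM (HF) (SD, n = 3 each). Its log2 difference from IFE was -0.91 ± 0.20 (adjusted p = 0.0571, edgeR); it passed with DESeq2 (adjusted p = 0.00352) and without the filter on low counts (adjusted p = 0.0133). With the replicate block it passed (-0.94 ± 0.15, adjusted p = 0.00850), as did Il22ra2, a soluble interleukin 22 binding protein (-1.09 ± 0.18, adjusted p = 0.00990). Its partner Il20rb differed by -0.22 ± 0.16. Against HF, 4 were higher and 0 lower in Touchdome, beside 11.8% and 12.8% of all genes: Il20ra (6.39 ± 0.30), Il20rb (0.96 ± 0.16), Il22ra2 (2.51 ± 0.58) and Ifnlr1 (0.43 ± 0.14). The Il22ra2 call ended without HF replicate 1 (adjusted p = 0.0614). The Ifnlr1 call ended in 8 of 15 alternatives, including without Touchdome replicates 2 or 3, IFE replicate 3 or HF replicates 2 or 3 (adjusted p = 0.126, 0.132, 0.0597, 0.138 and 0.135). In HF relative to IFE, Il20ra, Il20rb and Il22ra2 were lower (16.0% of all genes were) and Il22ra1 was higher by 1.36 ± 0.29 (17.1%).

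Calls among the ligase partners of Fbxo32 were close to the share over all genes in each comparison. Skp1 itself had no match by symbol and was not tested. Of 6 tested genes of the Skp1-Cul1 core and the paralog Fbxo25, 0 rose and 0 fell from IFE to Touchdome, beside 1.22% and 0.0798% of all genes (0 and 0 also at an unadjusted p under 0.05, with DESeq2 and with limma). The scaffold gene Cul1 differed by -0.01 ± 0.11, its exchange factor gene Cand1 by -0.03 ± 0.14 and Fbxo25 by -0.23 ± 0.18. Cops5, a subunit of the COP9 signalosome, was the 1 gene called against HF, higher in Touchdome by 0.34 ± 0.11 (adjusted p = 0.0441, edgeR), and the 1 called in HF against IFE, lower in HF (-0.38 ± 0.11). Over all genes 11.8% and 16.0% were called in these directions. Without IFE replicate 2 the count against HF was 2. The former call ended in 10 of 15 alternatives (highest adjusted p = 0.301), including without any 1 HF library, Touchdome replicates 2 or 3 or IFE replicates 1 or 3 (adjusted p from 0.0510 to 0.162). The latter ended without IFE replicate 1 (adjusted p = 0.0515), without HF replicate 1 (adjusted p = 0.0640) and with limma on TPM (-0.09, adjusted p = 0.659).

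Most called genes tied to FoxO and atrophy were higher in HF, where Fbxo32 was lowest. Of 20 tested, 0 rose and 0 fell from IFE to Touchdome, beside 1.22% and 0.0798% of all genes (2 and 1 at an unadjusted p under 0.05, and 0 and 0 with DESeq2 or limma); the highest were the autophagy gene Map1lc3b (-0.28 ± 0.11) and the redox regulator gene Txnip (-0.39 ± 0.20), which passed without IFE replicate 2 (adjusted p = 0.0259, edgeR), as did the kinase gene Pdk4 without Touchdome replicate 2 (1.91 ± 0.35, adjusted p = 0.0362). In HF against IFE, 10 were higher and 2 lower, beside 17.1% and 16.0% of all genes, while Fbxo32 lay at -2.003 ± 0.15. Foxo3, a FoxO factor, was higher in HF by 1.23 ± 0.16 (172 ± 7.90 against 73.2 ± 15.6 CPM, adjusted p = 6.87e-05, edgeR), Klf15, a transcription factor of the glucocorticoid response, by 2.996 ± 0.28 and the stress gene Sesn1 by 0.92 ± 0.12. Bnip3, a mitophagy receptor gene, was lower (-1.52 ± 0.23). The count of 2 lower was 1 without IFE replicate 3 or HF replicates 1 or 2. In Touchdome against HF, 1 was higher and 10 lower, beside 11.8% and 12.8% of all genes; the count of 10 was 4, 6, 5 and 4 without Touchdome replicates 1 or 2 or HF replicates 1 or 3. Foxo1 stood at 85.6 ± 5.87, 90.9 ± 14.6 and 90.5 ± 3.401 CPM in Touchdome, IFE and HF.

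Of 28 other tested Fbxo genes, 0 rose and 0 fell from IFE to Touchdome, beside 1.22% and 0.0798% of all genes (2 and 0 at an unadjusted p under 0.05, and 0 and 0 with DESeq2 or limma), with Fbxo11 (0.01 ± 0.11) and Fbxo3 (-0.06 ± 0.11) at the highest levels. Against HF, 2 were higher (Fbxo4 and Fbxo5) and 2 lower (Fbxo16 and Fbxo21) in Touchdome, by 0.92, 1.03, -2.99 and -0.55, beside 11.8% and 12.8% of all genes. All these calls ended without at least 1 library: without Touchdome replicate 1 or HF replicate 2 for Fbxo4 (adjusted p = 0.0702 and 0.0563), without Touchdome replicate 2 or HF replicates 1 or 2 for Fbxo5 (0.1005, 0.0847 and 0.0792), without Touchdome replicate 2 or HF replicate 3 for Fbxo16 (0.0517 and 0.0572) and without Touchdome replicate 1 or HF replicate 3 for Fbxo21 (0.0676 and 0.0555). The count of 2 lower was 4 without IFE replicate 2. In HF relative to IFE, 6 were higher, led by Fbxo17 (3.12 ± 0.66), and 3 lower, beside 17.1% and 16.0% of all genes, and the 6 became 3 without any 1 IFE library or HF replicate 2, and 1 without HF replicate 3.

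Of 39 other tested Trim genes, 0 rose and 0 fell from IFE to Touchdome, beside 1.22% and 0.0798% of all genes (0 and 2 at an unadjusted p under 0.05, and 0 and 0 with DESeq2 or limma). Trim29 differed by -0.03 ± 0.13 and Trim28, a corepressor gene, by -0.12 ± 0.10. Against HF, 5 were higher and 6 lower in Touchdome, close to the 11.8% and 12.8% of all genes, and the 6 became 3 without Touchdome replicate 1 or HF replicate 3. Trim7 stood at 158 ± 18.9 CPM (Touchdome), 198 ± 3.07 CPM (IFE) and 29.0 ± 4.51 CPM (HF), and was higher than in HF by 2.45 ± 0.14 (adjusted p = 1.7e-07, edgeR). Trim16 was higher by 1.97 ± 0.28, whereas Trim2 and Trim32 were lower (-1.34 ± 0.14 and -1.38 ± 0.17). In HF against IFE, 6 were higher and 7 lower, close to the 17.1% and 16.0% of all genes.

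Aebp1, an extracellular matrix protein gene related to Cpxm2, was lower in Touchdome than in HF. Of 5 tested metallocarboxypeptidase genes of its subfamily, 0 rose and 0 fell from IFE to Touchdome with edgeR, beside 1.22% and 0.0798% of all genes (2 and 0 at an unadjusted p under 0.05, 1 and 0 with DESeq2, and 0 and 0 with limma). Cpe, which processes neuropeptides, differed by 0.17 ± 0.18, and Cpd by 0.31 ± 0.17. Cpxm1 stood at 1.72 ± 0.289, 0.262 ± 0.367 and 0.465 ± 0.342 CPM in Touchdome, IFE and HF. Aebp1 was the 1 gene with DESeq2 (1.21 ± 0.36, adjusted p = 0.0293). It also passed as higher without the filter on low counts (1.19 ± 0.30, adjusted p = 0.0334, edgeR). Against HF, where 12.8% of all genes were lower and 11.8% higher, Aebp1 was lower (6.54 ± 3.77 against 20.7 ± 2.40 CPM, adjusted p = 0.00238) and Cpd higher by 0.66 ± 0.17 (adjusted p = 0.0110, edgeR), the latter not with limma on TPM (adjusted p = 0.0811). In HF relative to IFE, Aebp1 was higher by 2.87 ± 0.34 and 0 were lower, beside 17.1% and 16.0% of all genes. The count of 1 higher was 2 in 10 of 15 alternatives, including without Touchdome replicates 1 or 2, IFE replicate 1 or HF replicate 2. Without IFE replicate 2, 1 was lower.

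The genes most like each member were taken as those with the highest Pearson's r of log2 CPM over the 9 libraries, among 10246 genes that reached 10 CPM in some group. For Fbxo32 these were Herpud1, a gene of the endoplasmic reticulum stress response, the immune checkpoint gene Vsir and the actin regulator gene Cap1, all at r = 0.983. Trim47 was closest to the transporter gene Slc22a4, the growth factor binding protein gene Igfbp3 and the Golgi mannosidase gene Man1c1 (r = 0.998, 0.997 and 0.996). Man1c1 stood at 74.8 ± 14.6, 112 ± 11.3 and 8.13 ± 1.64 CPM in Touchdome, IFE and HF. Cpxm2 was closest to the complement regulator gene Cd55 (112 ± 13.3, 158 ± 3.92 and 15.1 ± 1.77 CPM), the amino acid transporter gene Slc1a4 and the signalling scaffold gene Card10 (r = 0.999, 0.998 and 0.998). The genes like Ifngr1 included Rgs12 and Prickle1 (r = 0.997 and 0.995); Rgs12, a regulator of G protein signalling, stood at 235 ± 16.2, 271 ± 8.47 and 165 ± 4.18 CPM. Between the members r was 0.935 to 0.995, highest for Trim47 with Cpxm2. All points share the libraries and the groups.

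Markers of other cells moved with the groups in part, and their part in these results was not tested. The 6 fibroblast markers summed to 45.3 to 90.2 CPM in Touchdome, 0.844 to 2.95 CPM in IFE and 62.2 to 87.1 CPM in HF, with Lum at 0 counts in Touchdome and HF. The markers did not move together: in HF the sum was mostly Col1a2 (68.4, 54.1 and 73.3 CPM in replicates 1, 2 and 3), while Dcn was at most 0.0655 CPM in HF against 16.4 to 25.3 CPM in Touchdome. The 7 melanocyte markers summed to 16.1 to 51.3, 9.92 to 14.3 and 98.99 to 129 CPM in the same order, with Tyr at 0 in IFE. In HF that sum was mostly Mitf (93.4, 90.2 and 113 CPM), with Mlana and Tyr at or under 0.211 CPM. Touchdome replicate 3, the lowest Touchdome library of all 4 genes, was high in several of these markers but not in all. Col1a1 was 31.1 against 2.43 and 3.58 CPM in replicates 1 and 2, and Col3a1 was 19.7 against 2.49 and 1.43 CPM. Dct was 13.7 against 2.24 and 2.15 CPM and Mitf was 24.4 against 11.2 and 10.4 CPM. Dcn went the other way, at 16.4 against 23.8 and 25.3 CPM, and Col1a2 differed less, at 21.5 against 15.3 and 18.6 CPM. The 8 Langerhans cell and macrophage markers overlapped between groups (111 to 241, 90.5 to 189 and 49.6 to 335 CPM), and HF replicate 3 stood apart, with Cd207 at 0.852 CPM against 21.4 and 21.8 CPM in the other HF libraries. Ifngr1 in HF replicate 3 was 37.2 CPM against 42.5 and 47.3 CPM, and Fbxo32 and Cpxm2 were also lowest in CPM in that HF library. In TPM that library was instead the highest HF library for Cpxm2. In Touchdome and IFE, replicate 3 was instead the highest in Cd207 (5.73 and 6.70 CPM) and the lowest in Ifngr1 (98.1 and 172 CPM). The 8 skeletal muscle markers summed to at most 1.25 CPM in any library, with Myod1, Tnnt3 and Des at 0 throughout. Fbxo32, a gene abundant in muscle, was at least 34.2 CPM, and any part of muscle in it was not tested. The 7 T cell markers summed to 5.98 to 9.65, 3.86 to 7.10 and 2.03 to 3.06 CPM, the 6 endothelial markers to 4.11 to 7.67, 1.69 to 2.68 and 0 to 2.88 CPM (Kdr at 0 in IFE and HF, Cdh5 and Cldn5 at 0 in IFE), and the 6 Merkel cell markers to 1.33 to 9.53, 0.114 to 0.316 and 1.90 to 2.82 CPM, with Atoh1 and Sox2 at 0 in all libraries.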

How the data were processed

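The deposited table held, per library, an expected count and a TPM value for 55357 Ensembl genes. The submitters' processing notes list RSEM 1.3.3, STAR 2.7.9a and DESeq2 1.38.2 with build mm39; roles, annotation and strandedness: not given in the sources used here. Deposited expected counts are estimates, not scaled between libraries, and were rounded to whole numbers. The TPM values deposited by the authors are scaled for length and to a common total, so they carry no depth. Symbols for 52081 genes came from GENCODE M21, whose build differs.

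Genes were filtered with filterByExpr (minimum count 10, minimum total 15) and fitted in 1 model of the 9 libraries by edgeR 4.0.16 (robust quasi-likelihood, TMM, R 4.3.3), with Benjamini-Hochberg adjustment over 15046 genes and a threshold of 0.05. The SE is the size of the fitted difference divided by the root of its F value. The test was checked on simulated counts with changes larger than those of the 4 genes in Touchdome against IFE, so the check does not cover differences of that size. DESeq2 1.42.0, limma 3.58.1 on log2(TPM + 1), RLE scaling, no filter, the 2 groups alone, a replicate block and leaving out each library were alternatives. The 4 genes and the lists were chosen with earlier results of these data known. Members of the lists named in the text are, per comparison, up to 4 called with the smallest p or the 2 highest where none was called, plus direct partners, paralogs and relatives chosen after their values were seen (Ifngr2, Jak1, Foxo1, Fbxo25, Cpxm1, the overlapping genes and those called under an alternative). Cd74 is in the target and Langerhans lists, Trim63 and 4 Fbxo genes are in 2 lists, and 1 listed gene, Skp1, had no match by symbol. Some genes that this rule names are not reported here, though they remain in the counts.

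Same-numbered Touchdome and IFE libraries deviated together from their group means (r = 0.146, 0.173 and 0.203 across genes). The numbers may thus pair these groups, which is read from the data and not from the labels. The main fit did not use this pairing. The replicate block, which covered all 3 groups, was only an alternative. For Touchdome with HF and for HF with IFE r was -0.0257 to 0.0701. Library pairs within a group differed by more than sampling noise (chi-square per degree of freedom 17.1 to 76.7). The pairs of IFE replicate 2 with replicates 1 and 3 were highest, at 76.7 and 71.9, and the other pairs ran from 17.1 to 27.3. With 3 counts as the limit for a gene at 0, the floor ran from 0.114 to 0.316 CPM over the libraries, which covers counting error only.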

Additional observations from a re-analysis of the deposited data

How the results depend on the processing

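The choice of the 4 genes set the direction of their differences. Their libraries did not overlap between groups, so leaving out 1 library could not turn it. All 180 recomputed log2 differences of the 4 genes (15 alternatives for each gene and comparison) kept their direction, and 173 moved by less than 1 SD between replicates. The other 7 came from limma on log2(TPM + 1): for Trim47 -0.51 in Touchdome against IFE, 3.31 in Touchdome against HF and -3.83 in HF against IFE, for Cpxm2 3.69 and -4.25 in the last 2, and for Fbxo32 and Ifngr1 -1.70 and -1.94 in HF against IFE. With 1 library left out, Touchdome lay from IFE by -1.01 to -0.76 for Fbxo32, -0.76 to -0.60 for Trim47, -0.88 to -0.59 for Cpxm2 and -0.82 to -0.56 for Ifngr1. Of the 4 genes, 0 to 4 were called in Touchdome against IFE over the alternatives and 1 to 4 with 1 library left out, while 4 were called in each alternative of the other 2 comparisons. Any call of these genes is a description, since they were chosen on the same levels. The genes called higher in Touchdome than in IFE numbered 184, but 446 with DESeq2, 71 with limma on TPM, 100 with only the 2 groups, 282 with the replicate block and 105 to 216 with 1 library left out. The genes called lower numbered 12, but 49 without the filter, 84 with DESeq2, 0 with limma on TPM, 5 with only the 2 groups, 67 with the replicate block and 4 to 29 with 1 library left out; at an unadjusted p under 0.05 limma on TPM gave 186 lower, with 4 of the 4 genes among them. In HF against IFE, 2401 genes were lower, but 1197 with limma on TPM. The causes of these moves in differences and counts were not tested. Among the list genes named in Touchdome against IFE, the replicate block changed the calls of Il20ra, Il22ra2 and Cxcl9 and no other. Recounting the lists under each alternative was added after seeing the data.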
